A study of Mus musculus with 6 samples.

Results

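The genes examined here, 10 markers of thermogenic fat cells, were followed in inguinal white adipose tissue (iWAT), the subcutaneous fat depot of the mouse groin, and are Letmd1, Otop1, Fabp3, Kcnk3, Kng2, Slc27a2, Slc36a2, Tmem26, Tbx1 and Tnfrsf9. They were chosen by symbol from a table of 16538 genes, and all 10 members are listed in it. The members were picked, and split into those lower in knockout tissue and those not, from the same comparison that is described here, so their differences are given as a description with no test.

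RNA-Seq, which counts sequencing reads per gene, was carried out on 3 control and 3 AKO samples, each made of RNA pooled from 2 mice. AKO mice lack Nrg4, a secreted ligand of the epidermal growth factor family, in adipocytes, because Cre recombinase driven by the Adiponectin promoter removes the floxed gene there. Cells of iWAT other than adipocytes keep it. The controls are labelled wt and are described in the study's text as fl/fl littermates. Both groups were fed chow and held at 8°C, for 10 days by the sample labels. The text of the study gives a longer time. The age, sex and strain of these mice are not given in the sources used here. Nothing in the labels says more about how the pools were formed, so the spread between the 3 samples of a group is the spread between pools.

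Brown adipocytes burn fat to make heat in dedicated depots, and beige adipocytes are cells of similar appearance that arise within white fat during cold exposure. Both kinds are rich in mitochondria and can carry UCP1, the inner membrane protein that lets protons return without making ATP. Marker genes of this kind fall into genes shared by both cell types, which follow the thermogenic program, and genes proposed to tell beige from brown or white cells by their origin, such as Tmem26, Tbx1 and Tnfrsf9. In whole tissue, fewer cells of a type and less RNA per cell cannot be told apart.

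The values are normalized counts, that is, reads per gene divided by a size factor of the sample, without division by gene length. The samples held between 17570335 and 18373707 reads on the listed genes. Nrg4 itself measured 3128, 3102 and 3092 normalized counts in control and 2577, 2627 and 2691 in AKO. The log2 fold change was -0.24 (SE, standard error, 0.05, limma adjusted p = 0.298, and 0.0682 to 0.632 across the alternatives). The reads over the whole gene check the labels only by this difference. By quantitative PCR, the study's text reports almost no Nrg4 mRNA in AKO iWAT. Counts per gene do not tell reads of the floxed part from the rest, so they do not measure the loss of intact Nrg4 mRNA. Fbxo22, a gene read in the other direction, also covers 6.06% of the exonic bases of Nrg4. The reason for the gap between both measurements was not tested. Of 12 general adipocyte markers all 12 were detected, with a summed level of 783111 to 833739 normalized counts in control and 690810 to 750067 in AKO. Skeletal muscle markers, of which 23 of 24 are listed and 1 of these is at 0 in some sample, summed to 919, 33096 and 18447 in control and to 24628, 94141 and 140050 in AKO. B cell markers summed to 1350 in control 1 and 1651 in AKO 2 and to between 81.3 and 111 in the other samples. T cell markers summed to 1021 and 1820 in these same samples and to between 332 and 398 elsewhere. Mammary epithelial markers ranged from 40.9 to 2595, and 5 of the 10 were at 0 in some sample. The part of these other cells in the differences below was not tested, except where a value is given.

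For those of the 7 members lower in AKO that had a motif match, the stretch around the start site is shown, as context that the counts did not use. The windows of Tbx1 and Tnfrsf9, which also had matches but were not lower, are not printed. Otop1 was lower, and its window held no match. Promoters (250 bases before to 50 bases after an annotated start) came from RefSeq on GRCm38.p6, which held 10 promoters for 8 of the 10 members and none for Kcnk3 and Slc36a2. Capitals mark AGGTCA, the site that nuclear receptors such as PPARs recognise, or TGACG, the core of the cAMP response element, and TGACCT is AGGTCA read on the other strand. The Letmd1 window is chr15:100468761-100469060 (plus strand), that of Slc27a2 is chr2:126552774-126553073 (plus strand), that of Kng2 is chr16:23029052-23029351 (minus strand) and that of Fabp3 is chr4:130308488-130308787 (plus strand). Each is written 5′ to 3′ in the direction of its gene.
Letmd1: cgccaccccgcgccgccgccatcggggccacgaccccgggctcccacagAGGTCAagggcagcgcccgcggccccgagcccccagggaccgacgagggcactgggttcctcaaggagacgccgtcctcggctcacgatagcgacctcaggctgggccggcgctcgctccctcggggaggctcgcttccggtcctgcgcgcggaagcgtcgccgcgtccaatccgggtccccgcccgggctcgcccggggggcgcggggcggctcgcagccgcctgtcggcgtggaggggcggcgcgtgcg
Slc27a2: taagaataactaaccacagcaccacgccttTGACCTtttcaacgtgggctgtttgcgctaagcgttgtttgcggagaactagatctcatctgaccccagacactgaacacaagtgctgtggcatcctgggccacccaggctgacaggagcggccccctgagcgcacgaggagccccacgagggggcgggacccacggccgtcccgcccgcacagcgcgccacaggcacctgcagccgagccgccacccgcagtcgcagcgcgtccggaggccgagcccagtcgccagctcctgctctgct
Kng2: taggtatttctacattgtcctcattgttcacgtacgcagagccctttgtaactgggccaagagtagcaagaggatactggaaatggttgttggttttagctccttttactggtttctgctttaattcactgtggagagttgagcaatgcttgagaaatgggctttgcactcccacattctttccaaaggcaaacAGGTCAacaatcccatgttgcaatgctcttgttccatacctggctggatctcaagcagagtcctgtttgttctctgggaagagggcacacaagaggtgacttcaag
Fabp3: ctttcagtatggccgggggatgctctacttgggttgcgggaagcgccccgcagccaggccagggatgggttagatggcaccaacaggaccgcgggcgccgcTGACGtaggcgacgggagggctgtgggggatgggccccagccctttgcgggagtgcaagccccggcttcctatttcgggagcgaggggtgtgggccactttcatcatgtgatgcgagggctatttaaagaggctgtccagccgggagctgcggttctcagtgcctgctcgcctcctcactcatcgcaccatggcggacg

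AGGTCA was matched at position -201 from the start in Letmd1, at -220 in Slc27a2 and at -56 in Kng2. It was also present at 6 bases after the second annotated start of Tnfrsf9, so that 4 members held it. Among all 32851 promoters of the same length, 16.3% held AGGTCA on either strand. TGACG was matched at -149 in Fabp3 and near both annotated starts of Tbx1, and 20.8% of all promoters held it. None of the 10 promoters held the direct repeat bound by PPARs, in which 2 copies of AGGTCA are separated by any 1 base (0.0396% of all promoters), TCAAGGTCA, the ERR element (0.423%), the full TGACGTCA (1.79%) or TATAAA (13.6%). The longer nuclear receptor motifs contain AGGTCA and the full cAMP element contains TGACG, so these counts overlap. The matches were found in members that were lower in AKO and in members that were not, and say nothing about which factors bind there.

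Every AKO sample lay below every control sample for 7 of the 10 members (Letmd1, Otop1, Fabp3, Kcnk3, Kng2, Slc27a2 and Slc36a2), against 8.31% of the 13855 genes tested. Every AKO sample lay above every control sample for 1 member, Tmem26, against 6.14% of genes. Tbx1 and Tnfrsf9 overlapped between the groups. These counts restate how the members were chosen. The median log2 fold change of the members, AKO over control on log2(normalized count + 1), was -0.60, and that of all genes was 0.01, with 48.1% of them below 0.

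**Figure D1:**
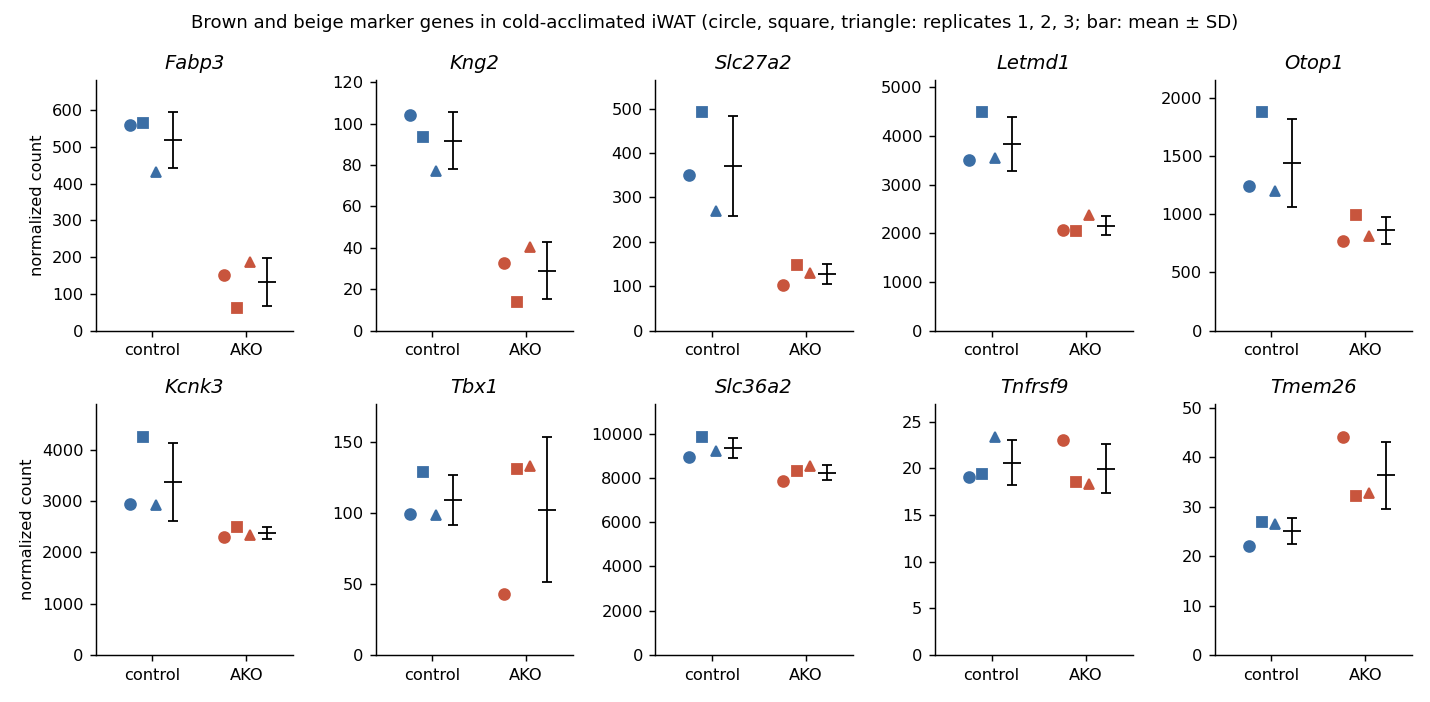
Normalized counts (vertical axes, each from 0) of the 10 members in the 3 control (blue) and 3 AKO (red) iWAT samples, with the mean and SD of each group as bars and circle, square and triangle for replicates 1, 2 and 3. The groups are apart for 8 genes, with AKO lower for 7 and higher for Tmem26, and the values of Tbx1 and Tnfrsf9 overlap.

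Among the genes of fatty acid handling, Fabp3 and Slc27a2 had large differences. Fabp3, the fatty acid-binding protein first known from heart, which carries fatty acids through the cytosol, measured 559, 566 and 432 normalized counts in control and 151, 60.5 and 186 in AKO. AKO 2 was the lowest, and the highest AKO sample was less than the lowest control by a wide margin. The means were 519 ± 75.3 and 132 ± 64.7 (SD, n = 3 each), so that AKO held 25.5% of the control level, with a log2 fold change of -2.10 (SE 0.37). Without AKO 2 the log2 fold change was -1.61, and without both control 1 and AKO 2 it was -1.56. Fabp3 is also a gene of oxidative muscle. The summed muscle markers were lowest in control 1, where Fabp3 was at 559, and highest in AKO 3, where it was at 186. The largest terms of that sum were Acta1, a skeletal actin gene, and Myh4 and Atp2a1, which are genes of fast fibers. Of the markers of oxidative fibers (named after their values were seen), Mb, which encodes myoglobin, measured 12.0, 120 and 17.3 normalized counts in control and 25.9, 22.5 and 19.3 in AKO. Myh2 measured 4.01, 126 and 5.08 against 30.7, 1.95 and 6.75. Both were highest in control 2, as Fabp3 was, and both overlapped between the groups. Their part in the Fabp3 difference was not tested. Fabp3 lies at chromosome 4 from 130308595 to 130315463 (GRCm38, plus strand), and 9.84% of its exonic bases are shared with Zcchc17 on the opposite strand. Whether the reads were counted by strand is not given in the sources used here, so reads on those bases cannot be assigned with certainty.

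Slc27a2 encodes FATP2, which takes up long-chain fatty acids and activates very long-chain ones to acyl-CoA. It measured 350, 491 and 270 normalized counts in control and 103, 147 and 130 in AKO. The controls spread widely, with control 2 the highest, and the groups stayed apart. Means of 371 ± 112 and 127 ± 22.5 (SD, n = 3 each) left AKO at 34.2% of control, a log2 fold change of -1.51 (SE 0.22) that ran from -1.72 to -1.29 with each sample left out. The gene spans chromosome 2 from 126552407 to 126588243 (plus strand), and 11.2% of its exonic bases overlap Gm26697, a noncoding gene on the opposite strand.

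The most abundant relatives with these roles had smaller differences, with no call by limma, edgeR or DESeq2. Fabp4, the main fatty acid-binding protein of fat cells, had 200118 ± 16044 normalized counts in control against 177481 ± 6351 in AKO (SD, n = 3 each), a log2 fold change of -0.17 (SE 0.13). Slc27a1, the fatty acid transporter FATP1, which is also on the list of beige-selective genes, had 24854 ± 1455 and 23094 ± 1863 (SD, n = 3 each), a log2 fold change of -0.11 (SE 0.09). The log2 fold change of Fabp5 was 0.06, and that of Slc27a4 (named after its values were seen) was -0.06. Relatives with few reads were left out of the limma test and varied more (named after their values were seen). Fabp1 measured 7.02, 2.15 and 0 normalized counts in control and 0, 1.95 and 0 in AKO, and Slc27a6 measured 7.02, 2.15 and 7.12 against 15.4, 7.81 and 8.68.

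Kng2 encodes a kininogen, the secreted precursor of bradykinin. It measured 104, 93.6 and 77.3 normalized counts in control and 32.7, 13.7 and 40.5 in AKO. AKO 2 was again the lowest sample, as for Fabp3. The means were 91.7 ± 13.6 and 28.9 ± 13.8 (SD, n = 3 each), which put AKO at 31.5% of control with a log2 fold change of -1.75 (SE 0.37). This was -1.30 without AKO 2 and -1.20 without both control 1 and AKO 2. Its near-identical neighbor Kng1 was listed at 0 to 3.84 normalized counts, and how reads were divided between both copies is uncertain. Kng2 lies on chromosome 16 from 22985854 to 23029482 (minus strand).

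Letmd1 encodes a protein of the mitochondrial inner membrane that brown adipocytes need for their mitochondria and heat production. It measured 3502, 4481 and 3542 normalized counts in control and 2063, 2036 and 2376 in AKO. The AKO samples were close together, and control 2 stood above the other controls. AKO was at 56.2% of control, from 3842 ± 554 to 2158 ± 189 (SD, n = 3 each), and the log2 fold change of -0.83 (SE 0.11) stayed between -0.90 and -0.71 with each sample left out. The gene is at chromosome 15 from 100469023 to 100479164 (plus strand). Its relative Letm1, an ion exchanger of the same membrane, had a log2 fold change of -0.39 (SE 0.09). Letm1 was the 1 gene among 22 tested relatives and partners of the members that DESeq2 called (adjusted p = 0.00725), and limma did not call it (adjusted p = 0.298).

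Of the ion channels, Otop1 encodes otopetrin 1, a proton channel with high expression in brown fat. It measured 1248, 1878 and 1200 normalized counts in control and 774, 997 and 814 in AKO. Control 2 was far above the other controls, and the highest AKO sample was below the lowest control. The means were 1442 ± 378 and 862 ± 119 (SD, n = 3 each), AKO at 59.8% of control, with -0.72 as the log2 fold change (SE 0.18) and -0.51 without control 2. Otop1 lies on chromosome 5 from 38275972 to 38304217 (plus strand).

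Kcnk3 encodes TASK1, a potassium leak channel of the tandem-pore family that has been described as a marker of thermogenic fat. It measured 2940, 4249 and 2928 normalized counts in control and 2299, 2499 and 2326 in AKO. The AKO samples differed little, and control 2 was again the highest. From 3372 ± 759 to 2375 ± 109 (SD, n = 3 each), AKO held 70.4% of control. The log2 fold change of -0.48 (SE 0.14) was -0.31 without control 2. Kcnk2, the relative encoding TREK1 (named after its values were seen), was at 446 ± 75.8 and 485 ± 75.4 (SD, n = 3 each), a log2 fold change of 0.12. Kcnk5 (0.39) and Kcnk13 (0.54), also named after their values were seen, had every AKO value above the controls, the opposite direction to Kcnk3. Kcnk3 lies on chromosome 5 from 30588170 to 30625271 (plus strand), and 5.76% of its exonic bases are shared with the opposite-strand gene Gm9899.

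Slc36a2 encodes PAT2, a proton-coupled transporter of small amino acids at the adipocyte surface. It measured 8962, 9861 and 9235 normalized counts in control and 7864, 8298 and 8534 in AKO. The groups were apart by only 4.58% of the control mean, which makes it the member just inside the boundary of the lower set. AKO was at 88.0% of control, 9353 ± 461 against 8232 ± 339.9 (SD, n = 3 each), with a log2 fold change of -0.18 (SE 0.07). When the mean log2 level of the 12 adipocyte markers was subtracted in each sample, the log2 fold change of Slc36a2 became -0.05. Its relative Slc36a1 (named after its values were seen) had 613 ± 14.1 and 649 ± 23.4 normalized counts (SD, n = 3 each), a log2 fold change of 0.08. Slc36a2 spans chromosome 11 from 55158470 to 55185077 (minus strand).

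**Figure D2:**
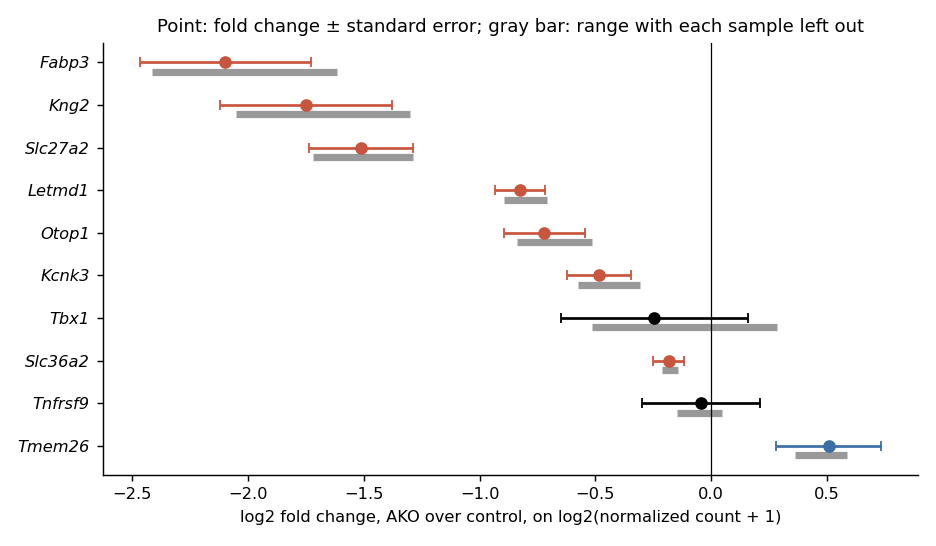
Log2 fold change of each member, AKO over control on log2(normalized count + 1) (horizontal axis), as a point with its standard error, and the range over fits with each sample left out in turn as a gray bar. Fabp3 at -2.10 and Kng2 at -1.75 are farthest below 0, the bars of Tbx1 and Tnfrsf9 cross 0, and Tmem26 at 0.51 is the 1 gene above 0.

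The markers proposed to be selective for beige cells did not share this pattern. Tbx1, a T-box transcription factor, had the lowest log2 fold change of the members outside the lower set. It measured 99.3, 129 and 98.6 normalized counts in control and 43.2, 131 and 133 in AKO. AKO 1 was below every control, and AKO 2 and AKO 3 were above every control. The means of 109 ± 17.4 and 102 ± 51.2 (SD, n = 3 each) gave a log2 fold change of -0.24 (SE 0.40), which became 0.28 without AKO 1. Its sign was thus set by 1 sample. Tbx1 lies on chromosome 16 from 18580979 to 18590671 (minus strand).

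Tmem26 encodes a membrane protein used as a surface marker of beige adipocytes. It measured 22.1, 26.9 and 26.4 normalized counts in control and 44.2, 32.2 and 32.8 in AKO. All AKO samples were above the controls, AKO 1 most of all. The means were 25.1 ± 2.65 and 36.4 ± 6.75 (SD, n = 3 each), AKO at 145% of control, with a log2 fold change of 0.51 (SE 0.23) that stayed between 0.36 and 0.59 with each sample left out. The gene had 73 reads in all controls together and 113 in AKO, so counting error is large. It spans chromosome 10 from 68723646 to 68782650 (plus strand).

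Tnfrsf9 encodes CD137, a receptor of the tumor necrosis factor family that marks beige cells and is also carried by activated T cells. It measured 19.1, 19.4 and 23.4 normalized counts in control and 23.0, 18.5 and 18.3 in AKO. The groups overlapped, and their SDs were below the counting error expected at such low levels. The means were 20.6 ± 2.41 and 20.0 ± 2.67 (SD, n = 3 each) from 60 and 62 reads, and the log2 fold change was -0.04 (SE 0.26), with the other sign under 4 of 15 alternative settings. The samples in which T cell markers were high, control 1 and AKO 2, had 19.1 and 18.5 normalized counts of Tnfrsf9, within the range of the others. Its ligand gene Tnfsf9 was similarly low, 23.0 ± 2.90 and 23.5 ± 2.61 (SD, n = 3 each). Tnfrsf9 lies on chromosome 4 from 150914562 to 150946102 (plus strand). At these read numbers, small differences in Tmem26 or Tnfrsf9 were not detectable.

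Compared per length, as normalized counts per kb of exonic sequence, the members spanned a 604-fold range of levels in control. Slc36a2 had the highest level at 2873 ± 142 (SD, n = 3), followed by Kcnk3 at 848 ± 191, Letmd1 at 793 ± 114, Fabp3 at 630.5 ± 91.5 and Otop1 at 419 ± 110. Slc27a2 was at 98.7 ± 29.8, Kng2 at 33.6 ± 4.99, Tbx1 at 31.0 ± 4.94, Tnfrsf9 at 7.57 ± 0.886 and Tmem26 at 4.76 ± 0.502. The neighboring pairs Kcnk3 and Letmd1, Fabp3 and Otop1, and Kng2 and Tbx1 overlapped in this order, and the other neighbors were apart. In AKO the order differed in that Otop1 (250.3) stood above Fabp3 (161) and Tbx1 (29.1) above Kng2 (10.6), but the samples of both pairs overlapped. The 3 beige-selective members thus had the 3 lowest mean levels in control, although Tbx1 overlapped with Kng2. The exonic lengths are unions over annotated transcripts, and a gene that uses short transcripts is understated.

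**Figure D3:**
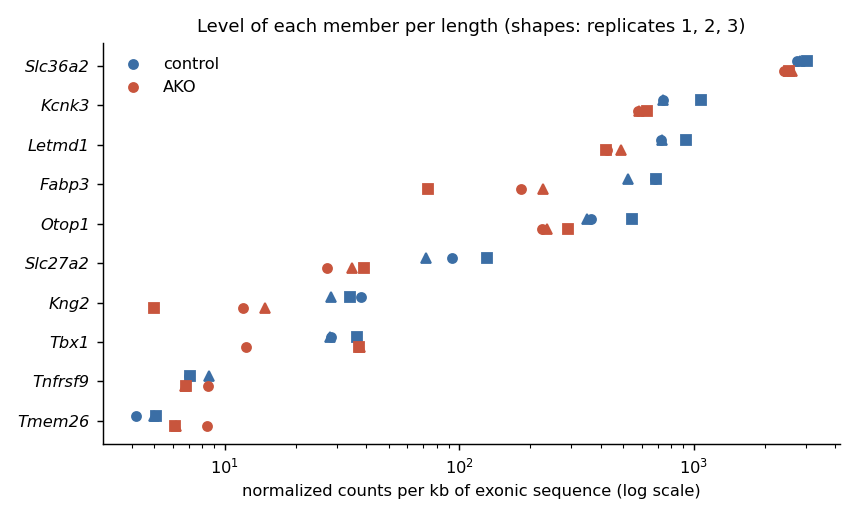
Level of each member per length in each sample (normalized counts per kb of exonic sequence, log scale on the horizontal axis), with control in blue, AKO in red and shapes for replicates 1, 2 and 3. Slc36a2 is highest at 2873 in control and Tmem26 lowest at 4.76, and the AKO points of Fabp3 and Kng2 move farthest to the left.

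The lower members did not vary alike from sample to sample. Control 2 was the highest control for 6 of the 7, and AKO 1 was the lowest AKO sample for 4 and AKO 2 for 3. Over the 6 samples, which share their libraries and groups, Fabp3 and Kng2 had a Pearson r of 0.998 on the log2 scale, and 0.994 after each group's mean was removed. Otop1 and Kcnk3 had an r of 0.984, or 0.957 within groups, and Otop1 and Slc27a2 had 0.962 and 0.917. Between these sets the correlation over all samples was weaker, and it was negative within groups. Fabp3 and Otop1 had an r of 0.68 over all samples and -0.30 within groups, and Fabp3 and Slc27a2 had 0.82 and -0.14. Letmd1 and Slc36a2 had 0.957 and 0.866.

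For each member the genes most like it were sought among the 10303 genes averaging 100 or more normalized counts, by the Pearson r over the 6 samples. The genes closest to Letmd1 were Echdc3 (0.999), Elovl3 (0.996) and a row listed only as ENSMUST00000082388.1 (0.996). Those closest to Otop1 were Hadhb, which encodes a subunit of the mitochondrial trifunctional protein of fatty acid oxidation, Exoc3 and Lyrm5 (0.997, 0.997 and 0.995). For Kcnk3 they were Sdha, a subunit of succinate dehydrogenase (0.998), Slmo2 and Ddhd2, and for Slc27a2 they were Idh2, the mitochondrial isocitrate dehydrogenase (0.996), Uqcc1 and Acot2. Slc36a2 was followed most closely by Cox7a1, a subunit of cytochrome oxidase (0.997), March2 and Etfb. Fabp3 had Plekhh3 (0.998), Ccrn4l and Clic4, and Kng2 had Fabp3 (0.998), Ccrn4l and Plekhh3. The members that were not lower had other companions. This adds little, because the r over the 6 samples includes the group difference by which the members were split. Tmem26 was closest to Nfatc2 (0.983), Zdhhc8 and Nfatc4, Tbx1 to Trpm4 (0.988) and Pnpla7, and Tnfrsf9 to Slc39a1 (0.976), Tmem214 and Ptbp1. With 6 samples in 2 groups, many genes reach a high r with any member. The r also does not measure the size of a difference. The log2 fold change was -0.15 for Plekhh3 and -0.16 for Clic4 beside -2.10 for Fabp3, and -0.17 for Echdc3 beside -0.83 for Letmd1. Other companions had larger ones, such as Elovl3 at -1.64 and Cox7a1 at -1.07.

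**Figure D4:**
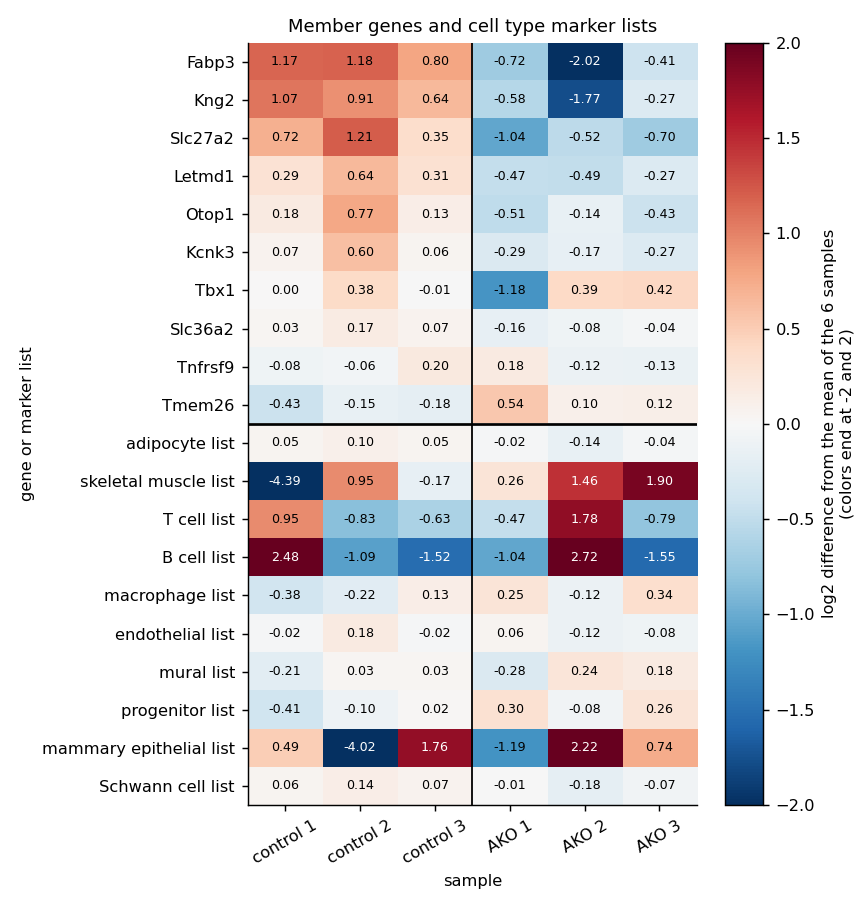
Log2 difference of each member (upper rows) and of the mean of each cell type marker list (lower rows) from its mean over the 6 samples, in each control and AKO sample, with red above and blue below and colors that end at -2 and 2. Fabp3 and Kng2 have their lowest value in AKO 2, Tbx1 in AKO 1, and the B cell list is high in control 1 and AKO 2.

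The other genes of the thermogenic program were read from lists written from general knowledge. Of 24 shared brown and beige markers, 22 were tested, and 15 of these 22 had every AKO sample below every control sample and 0 had every one above. Their median log2 fold change was -0.58. Over all genes, a Benjamini-Hochberg adjusted p under 0.05 from limma called 0.00722% lower and 0.00722% higher, edgeR on the recovered reads called 0.00721% lower and 0.0144% higher, and DESeq2 on those reads called 0.757% lower and 0.241% higher. At an unadjusted p under 0.05, limma had 4.69% of all genes lower and 4.41% higher, and 16 of the 22 shared markers lower and 0 higher. This list was written with earlier results of these data known. limma called 1 of the shared markers, Elovl3, which elongates very long-chain fatty acids and is induced by cold. Elovl3 measured 949, 1327 and 948 normalized counts in control and 327, 307 and 393 in AKO, and fell by 1.64 on the log2 scale (SE 0.15, limma adjusted p = 0.0350). Its adjusted p ranged from 5.65e-22 to 0.193 across the alternatives and was over the threshold without control 1, control 3 or any 1 AKO sample. DESeq2 called 11 of the 22, all lower.

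Ucp1 had 18058, 25393 and 16827 normalized counts in control and 5401, 4836 and 7801 in AKO, and Gyk, the glycerol kinase gene (named after its values were seen), had 1368, 1492 and 1082 against 549, 431 and 577. Both sets of samples were apart, with log2 fold changes of -1.75 and -1.34 and adjusted p-values from limma of 0.0703 and 0.0651. Cidea, a lipid droplet protein, was at -0.82, and Slc25a20, the carnitine carrier of the mitochondrion, was at -0.63, with groups apart for both. Acot2 was at -0.35 and Aifm2 at -0.24, also with groups apart. Adrb3, the adrenergic receptor of adipocytes, was at -0.28 with overlapping groups. Of these, DESeq2 called Ucp1, Gyk, Cidea and Slc25a20, and limma called none.

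Of 9 brown-selective genes, 8 were tested, with a median log2 fold change of 0.01, and 2 had AKO wholly below control. These were Pdk4, the kinase that shuts pyruvate dehydrogenase (6380 ± 2060 against 2871 ± 247 normalized counts, SD, n = 3 each), and Oplah, an enzyme of glutathione turnover (3931 ± 364 against 2946 ± 172). Their log2 fold changes were -1.11 and -0.41. DESeq2 called both (adjusted p = 0.00700 and 0.00198), and limma called 0 of the 8 (2 lower and 0 higher at an unadjusted p under 0.05). Mtus1 was at -0.07, and the transcription factor genes Ebf3 and Lhx8 were at 0.08 and 0.10. Zic1, the transcription factor that marks classical brown fat, was listed at 0 to 1.95 normalized counts and was not tested.

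Of 13 beige-selective genes other than the members, 12 were tested, and their median log2 fold change was -0.01. AKO was wholly below control for 2, Aqp7 (-0.25), a glycerol channel, and P2rx5 (-0.19), a purinergic receptor, and wholly above for 1, Cd40 (0.54, named after its values were seen). limma, edgeR and DESeq2 called 0 of the 12, and 1 was lower and 0 higher at an unadjusted p under 0.05 with limma. Hoxc8, a positional gene of the posterior body, was at -0.04, Sp100 at 0.11 and Cited1, a coregulator, at 0.44 with a standard error of 0.48. Cited1 was highest in AKO 2, and without that sample its log2 fold change was -0.02. The log2 fold changes of the 12 ran from -0.27 to 0.54, with 6 below 0 and 6 above.

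Of 8 white-selective genes 7 were listed and tested, and all 7 overlapped between the groups. Their median log2 fold change was 0.04, and limma, edgeR and DESeq2 called 0 (0 lower and 0 higher at an unadjusted p under 0.05). Retn, which encodes resistin, was at -0.06, Lep, which encodes leptin, was at 0.36 (SE 0.24), Nnat was at 0.04 and Slc7a10 at -0.14. With each sample left out, Lep ran from 0.06 to 0.54, and the ranges of Retn, Nnat and Slc7a10 crossed 0. Of 35 relatives and partners of the members, 27 were listed and 22 tested, with a median log2 fold change of 0.05. AKO was wholly below control for 4 and wholly above for 4, and limma and edgeR called 0 (3 lower and 3 higher at an unadjusted p under 0.05). The general adipocyte markers, which include Adrb3 and Fabp4, had a median log2 fold change of -0.14, and 4 of 12 were wholly below control.

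**Figure D5:**
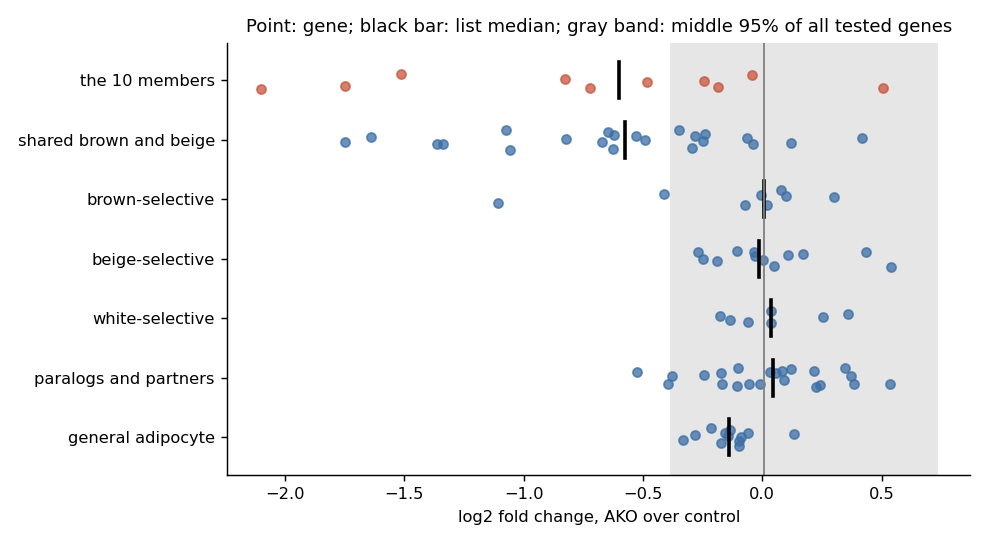
Log2 fold change, AKO over control on log2(normalized count + 1) (horizontal axis), of each tested gene (points) by list, with the list median as a black bar and the middle 95% of all 13855 genes as a gray band. The members (red) and the shared brown and beige markers have medians of -0.60 and -0.58, and the brown-selective, beige-selective, white-selective and relatives lists have medians between -0.01 and 0.05.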

How the data were processed

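RNA-Seq of iWAT was performed by the authors on 3 control and 3 AKO samples. Reads were aligned by the authors with STAR to GRCm38.p6 (mm10), counted per gene with featureCounts on GENCODE M25 and compared with DESeq2. The deposited table gives a signal per gene and sample, that is, reads scaled by the DESeq2 size factor of the sample. It also holds the authors' log2 fold changes, p-values and adjusted p-values, which were not used. Columns with values of an unmapped sample numbered 0.

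Values were compared as log2(value + 1) with limma 3.58.1 (R 4.3.3, trend in the variance) over 13855 genes that averaged 10 or more, and a Benjamini-Hochberg adjusted p under 0.05 was called. Dividing by the worth of 1 read gave whole reads for 100% of values, within 0.01. The recovered reads were tested with edgeR 4.0.16 (quasi-likelihood) and DESeq2 1.42.0. The tests were checked on simulated data. No 2 samples of a group agreed within sampling noise.

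The members and lists were chosen with earlier results of these data known. Named list genes are those called, up to 4 with the highest mean, up to 2 close to the members in role, and 3 most alike per member, of which 1 is not reported here. Positions and exon lengths came from GENCODE M21. The table keeps some older symbols. The alternatives were other pseudocounts (0.1 and 10), filters (none and 50), TMM factors, the count tests, the adipocyte markers as reference, a block for the replicate number, and fits without 1 sample or without both control 1 and AKO 2.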

Additional observations from a re-analysis of the deposited data

How the results depend on the processing

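The median log2 fold change of the members, -0.60, kept its sign under all 16 alternatives, from -0.77 with a mean of at least 50 (8 of the 10 members) to -0.41 without control 2. It was -0.47 relative to the adipocyte markers, a reference that moved the median of all genes to 0.14. Of the single members, Tbx1 changed sign in 1 alternative and Tnfrsf9 in 4, and no other member did. Slc36a2 relative to the adipocyte markers was the 1 of 158 member values that moved by more than the spread between replicates.

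limma called 2 genes in all, 1 lower and 1 higher. The count was 4 (2 lower, 2 higher) with a mean of at least 50, 3 (1 lower, 2 higher) with edgeR and 149 (113 lower, 36 higher) with DESeq2. With each sample left out it was 0 to 3, with 0 to 2 lower and 0 to 1 higher. Of the shared brown and beige markers, 1 was called, 2 (Elovl3 and Gyk) with a mean of at least 50, 11 with DESeq2 and 0 to 1 with each sample left out. DESeq2 called 2 brown-selective genes and 1 relative or partner, against 0 with limma. Without both control 1 and AKO 2, a setting chosen after seeing the data, 0 genes (0 lower, 0 higher) and 0 shared markers were called. With the replicate number as a block, 2 genes (0 lower, 2 higher) and 0 shared markers were called. Samples with the same number, which are pools of different mice, correlated in their deviations at 0.135, -0.35 and 0.24. Samples with different numbers ran from -0.50 to 0.34. With 3 samples per group, these values cannot decide whether the numbers pair the samples. Nrg4 was called under no alternative, with 0.0682 as its lowest adjusted p (DESeq2). Of the values of 30 named list genes under the alternatives, 433 kept their side of the threshold, 7 (Elovl3) fell short of it and 8 passed it (7 with DESeq2). A change of sign was counted only where a fit called the gene, and there were 0. Some uncalled genes did change sign with 1 sample left out, such as Cited1 (-0.02 to 0.85), Retn and Nnat. The cause of these changes was not tested. Counting error limits Tmem26 and Tnfrsf9.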

Other observations

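Most cell type marker lists had most of their genes on one side of 0. Log2 fold changes were above 0 for 11 of 12 T cell, 10 of 10 mammary epithelial and 17 of 21 skeletal muscle markers, and below 0 for 7 of 8 endothelial and 11 of 12 adipocyte markers. Of all genes, 48.1% were below 0. All 12 T cell, 10 mammary epithelial and 8 endothelial markers and 20 of the 21 muscle markers overlapped between the groups. limma, edgeR and DESeq2 called 0 genes of these lists. The T cell sum was 1820 normalized counts in AKO 2 and 398 and 332 in AKO 1 and AKO 3. All 8 markers of adipocyte progenitors were above 0 (median 0.29). Their summed levels still overlapped between the groups (42040 to 60141 normalized counts in control and 50528 to 67402 in AKO). For 3 of them, Pdgfra, Dpp4 and Cd34, the AKO samples all lay above the controls, against 6.14% of all genes. Dpp4, a surface peptidase of early progenitors, measured 714 ± 125 normalized counts in control against 1050 ± 93.2 in AKO (SD, n = 3 each) (adjusted p = 0.00844 from DESeq2 and 0.315 from limma). Of 10 macrophage markers, 9 were above 0 (median 0.36), all 10 overlapped between the groups, and limma, edgeR and DESeq2 called 0 (4 higher and 0 lower at an unadjusted p under 0.05 with limma). S100b, a calcium-binding protein of Schwann cells that fat cells also express, measured 217, 256 and 204 normalized counts in control and 138, 99.6 and 125 in AKO, a log2 fold change of -0.90 (adjusted p = 0.00162 from DESeq2 and 0.205 from limma). Pdgfra, Cd34 and S100b were named after their values were seen.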
